A study of Mus musculus with 5 samples.

Results

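The cGAS-STING signalling components were followed here as a set of 7 listed genes, all of them present among the 32285 genes of the matrices: Cgas, Tmem173, Tbk1, Ikbke, Irf3, Trex1 and Enpp1. They were chosen by name and not by their values, though with earlier results of these data known. The series holds single-nucleus RNA-seq of brain nuclei from 5 mice, labelled as hippocampus, with 1 library per mouse. The R241E group (n = 2) carries the genotype Tmem119-creERT2-cGaswt/R241E and the WT group (n = 3) the genotype Tmem119-creERT2-cGaswt/wt, so that the driver is shared by both groups. By the study's methods, tamoxifen, which activates the Cre recombinase, was given at an age of 8 to 10 weeks, and the exon with R241E lies inverted until Cre turns it. The driver uses the Tmem119 locus, a gene of microglia, and by the study's account acts mostly in microglia and brain macrophages; the allele was heterozygous. The study's results call the controls heterozygous for R241E, while its methods and the titles give wild-type Cgas, and the titles were followed. A text on aged mice given H151 or DMSO accompanies every sample, but no sample is assigned to either.

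cGAS binds DNA in the cytosol and makes the cyclic dinucleotide cGAMP, which binds STING on the endoplasmic reticulum. STING then moves to the Golgi and recruits the kinases TBK1 and IKKε, which phosphorylate the transcription factor IRF3 and so start transcription of type I interferon genes. The exonuclease TREX1 removes cytosolic DNA upstream of cGAS, and the ectoenzyme ENPP1 breaks down cGAMP outside the cell. In the brain, microglia, the resident macrophages, are the cells most often studied for this pathway. The R241E change weakens the hold of nucleosomes on mouse cGAS, so that the enzyme can be active without foreign DNA. The questions asked of the data were which nuclei held transcripts of the pathway, and whether the amount of these transcripts differed between R241E and WT.

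Classes of nuclei were named from marker genes after clustering without the 7 components and the other genes of the pathway, and class names stand for nuclei that resemble the class. Of 9505 nuclei kept, 5356 were microglia, with 518 to 1466 in each library. Another 6 classes had at least 20 nuclei in every library and were tested: neurons (766 nuclei), oligodendrocytes (651), mural cells (608), astrocytes (570), fibroblasts (512) and border-associated macrophages (343). The sort against NeuN and, by the methods, Olig2 thus left neurons and oligodendrocytes in the libraries. All 8 microglia markers, among them P2ry12 and Tmem119, were detected in the microglial clusters. The libraries held 4183709 to 10130667 unique molecular identifiers (UMIs, each standing for 1 captured RNA molecule), with a median of 2126 to 3364 UMIs per nucleus. R241E replicate 1 stood apart in its makeup: it gave 136 of the 191 ependymal or tanycyte-like nuclei, 120 of the 192 lymphocytes and 51 of the 53 pituitary-like nuclei. Barcodes found in more than 1 library numbered 13. The inverted exon cannot be seen in gene counts, so the Cgas counts below do not check the genotype.

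For Cgas, highest in microglia, and for Ikbke and Enpp1, highest in fibroblasts among the tested classes (below), the 300 bases around the RefSeq transcription start (250 before, 50 after) are shown from GRCm38.p6, the assembly also called mm10. Capitals mark GGAAGT or its reverse complement ACTTCC, a core of sites for ETS-family factors, and the Cgas window holds neither. The motif stood in the windows of 5 of the 6 components with a window (Tbk1, Ikbke, Irf3, Trex1 and Enpp1) and in 23.8% of 32851 windows of that length. Among other pathway genes it stood in 5 of 9 windows of those that rose in R241E microglia and in 15 of 38 of those not called (below). The interferon-stimulated response element, taken as GAAA, any 2 bases and GAAA again on either strand, stood in none of the 6 and in 3.44% of all windows. It was also absent from the 9 windows available for the 12 pathway genes that rose in R241E microglia (below). The matches are descriptions of these letters and not of binding.
Cgas (chr9:78443188-78443487, minus strand): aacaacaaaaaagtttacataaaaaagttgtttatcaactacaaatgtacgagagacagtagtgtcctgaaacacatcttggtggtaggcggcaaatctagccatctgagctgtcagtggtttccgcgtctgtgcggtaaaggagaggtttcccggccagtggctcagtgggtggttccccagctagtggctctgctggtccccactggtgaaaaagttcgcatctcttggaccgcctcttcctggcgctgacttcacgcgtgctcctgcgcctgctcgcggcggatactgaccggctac
Ikbke (chr1:131279514-131279813, minus strand): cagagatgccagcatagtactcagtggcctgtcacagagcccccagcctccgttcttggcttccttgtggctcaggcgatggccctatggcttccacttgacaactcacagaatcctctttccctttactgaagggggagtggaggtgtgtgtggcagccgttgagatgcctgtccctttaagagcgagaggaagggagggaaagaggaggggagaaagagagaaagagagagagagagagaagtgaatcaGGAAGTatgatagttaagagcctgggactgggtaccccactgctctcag
Enpp1 (chr10:24712110-24712409, minus strand): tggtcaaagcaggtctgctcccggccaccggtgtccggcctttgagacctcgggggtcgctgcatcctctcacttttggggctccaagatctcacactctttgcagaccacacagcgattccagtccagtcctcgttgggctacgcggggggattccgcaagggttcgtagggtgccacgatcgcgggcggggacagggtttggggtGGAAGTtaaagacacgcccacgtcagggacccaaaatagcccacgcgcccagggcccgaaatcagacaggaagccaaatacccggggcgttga

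Transcripts of the sensor and of its adaptor were concentrated in microglia. Levels are given as CPM, the UMIs of a gene per 1000000 UMIs in the summed nuclei of a class and library. Cgas (ENSMUSG00000032344, chr9:78430518-78443237) was at 83.5 and 88.2 CPM in the R241E microglia and at 66.5, 72.2 and 74.7 CPM in the WT microglia. In border-associated macrophages, the macrophages of meninges and perivascular spaces, it was at 57.9 and 62.9 CPM for R241E mice against 19.6, 18.8 and 23.0 CPM in WT. Every microglial value lay above every value of the macrophages. The macrophage values fell into a higher R241E and a lower WT group, on 19 and 8 against 3, 3 and 4 UMIs. These counts were too low for the genotype test (below). In the other 5 tested classes no library passed 23.4 CPM, the value of mural cells in R241E replicate 1, and oligodendrocytes held 3 Cgas UMIs in all.

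Tmem173 (ENSMUSG00000024349, Sting1 in RefSeq), which encodes STING, showed the same order at the top. Its microglial levels were 136 and 152 CPM for R241E mice against 107, 114 and 128 CPM in WT. Border-associated macrophages followed at 32.7 to 56.4 CPM over the 5 libraries, and then mural cells at 7.44 to 30.4 CPM. The ranges of these 3 classes did not overlap, while mural cells, fibroblasts and neurons overlapped with their neighbours in the order. Oligodendrocytes were lowest, with 2 UMIs in all.

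**Figure D1:**
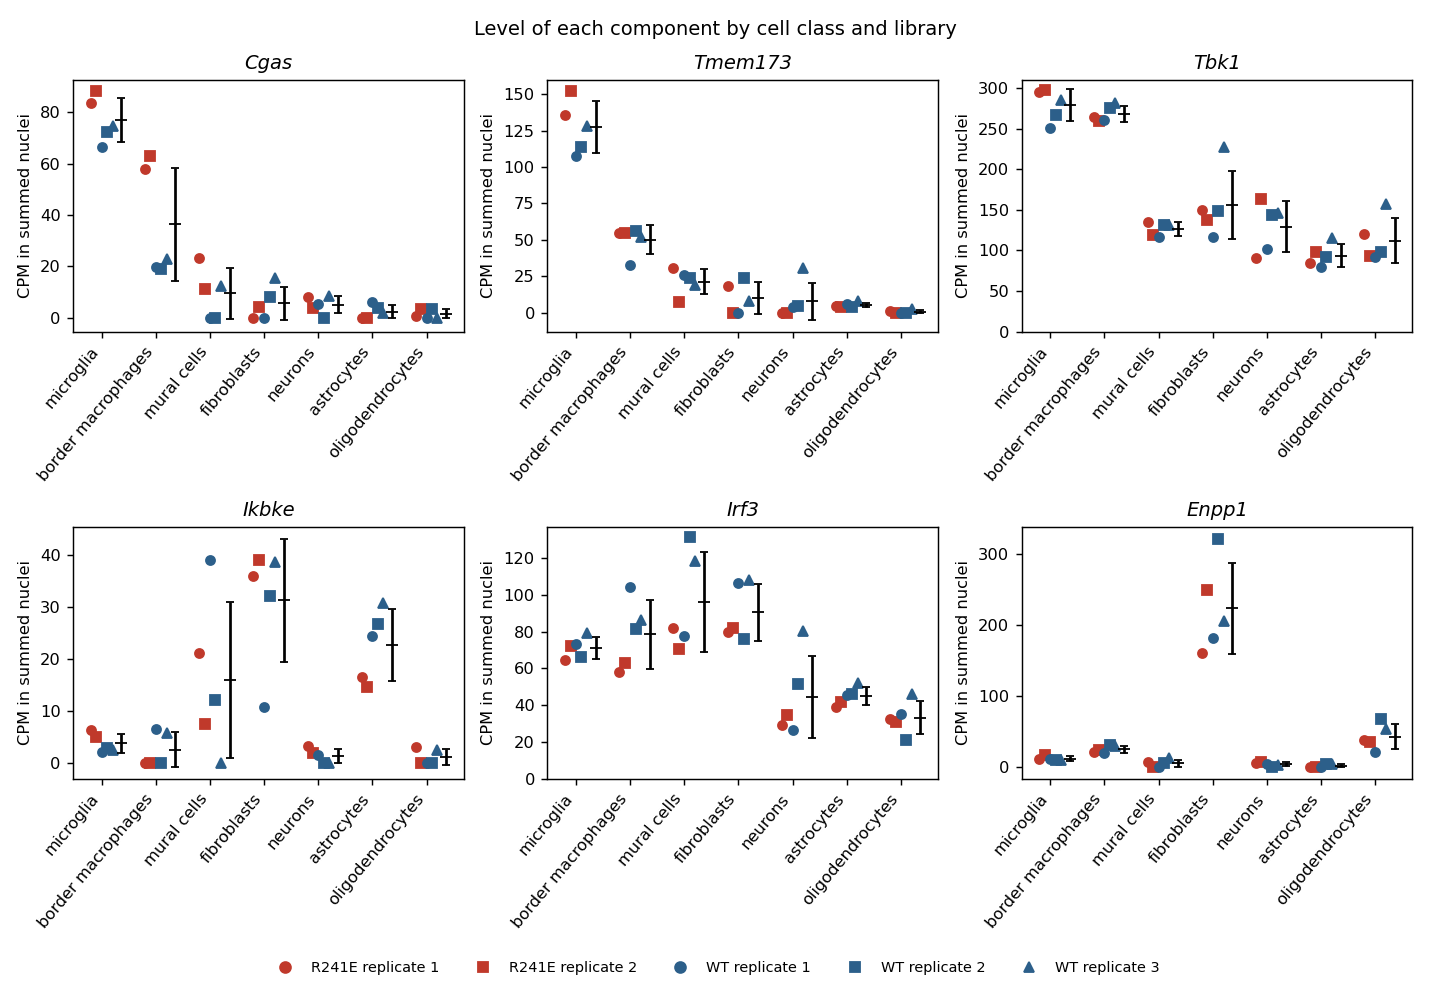
Level of 6 components (CPM, linear axis from 0, 1 panel per gene) in the 7 tested classes. Points are libraries (red R241E, blue WT), and the black bar is the mean ± SD over all 5 libraries. Cgas and Tmem173 are highest in microglia, Ikbke in fibroblasts and astrocytes, and Enpp1 in fibroblasts, while Tbk1 and Irf3 are seen in every class.

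Levels of each class were set against microglia with edgeR's quasi-likelihood test on the sums, with the library as a block, Benjamini-Hochberg adjustment over 10142 genes and a threshold of 0.05 for the adjusted p. Of 36 contrasts (6 components by 6 classes) 27 were called. These contrasts call a large share of genes: the share of all genes called lower than in microglia was 31.9% for astrocytes, 18.8% for border-associated macrophages, 29.9% for fibroblasts, 29.9% for mural cells, 33% for neurons and 31.8% for oligodendrocytes. The shares called higher were 32.3%, 9.23%, 27.5%, 22%, 33% and 27.7% in the same order. Cgas and Tmem173 were lower than in microglia in all 6 classes. For Cgas the log2 fold change ran from −1.23 (SE 0.34, edgeR adjusted p = 0.00557) in border-associated macrophages to −5.69 (SE 0.56, adjusted p = 1.51e-11) in oligodendrocytes. The first of these was no longer called without WT replicate 3 (−0.98, adjusted p = 0.0710). For Tmem173 it ran from −1.55 (SE 0.33, adjusted p = 0.000282) to −6.93 (SE 0.58, adjusted p = 2.54e-13) in the same classes. Where few UMIs were counted the fitted value is imprecise. By pooled counts, Cgas was 67.0 times lower in oligodendrocytes than in microglia, with an exact 95% interval from 22.9 to 326 that covers counting error only.

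Droplet data hold free RNA, which adds UMIs of abundant genes to nuclei that do not express them. The microglia markers give the size of this. In neurons, the 8 markers stood at 2.66% to 11.9% of their level in microglia of the same library (median over libraries), and Cgas stood at 8.02% and Tmem173 at 3.55%. In astrocytes the markers stood at 1.30% to 8.70%, Cgas at 2.57% and Tmem173 at 3.35%. In oligodendrocytes they stood at 0.948% to 14.8%, Cgas at 0.904% and Tmem173 at 0%. In fibroblasts they stood at 1.33% to 7.80%, Cgas at 4.66% and Tmem173 at 6.02%. The sensor and the adaptor were thus within or below the marker range in these 4 classes, so that their levels there cannot be told apart from background.

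Mural cells and border-associated macrophages differed from that. In mural cells the markers stood at 4.01% to 12.7% and Cgas at 12.6%, within that range, while Tmem173 stood at 21.0%, above it. In border-associated macrophages the markers, of which macrophages express several, ran from 0% (Tmem119) to 44.4% (P2ry12), with Cgas at 30.8% and Tmem173 at 40.3%. When nuclei with UMIs of 2 or more microglia markers were left out, a step added after the data had been seen, Tmem173 had 0 UMIs in the 599 neurons left, where 3 UMIs would be 1.27 CPM, and Cgas had 2 UMIs there (0.846 CPM). In fibroblasts 12 of 21 Tmem173 UMIs remained (7.68 CPM, exact 95% Poisson interval 3.97 to 13.4) and 6 of 8 Cgas UMIs (3.84 CPM, 1.41 to 8.36), and in astrocytes 6 of 13 Tmem173 UMIs (3.24 CPM, 1.19 to 7.05). In mural cells Tmem173 was at 12.2 CPM (exact 95% Poisson interval 6.07 to 21.8) after this step against 21.8 CPM before it. In border-associated macrophages, of which 114 of 343 nuclei remained, Cgas was at 31.8 CPM (13.7 to 62.7) and Tmem173 at 67.6 CPM (39.4 to 108).

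**Figure D2:**
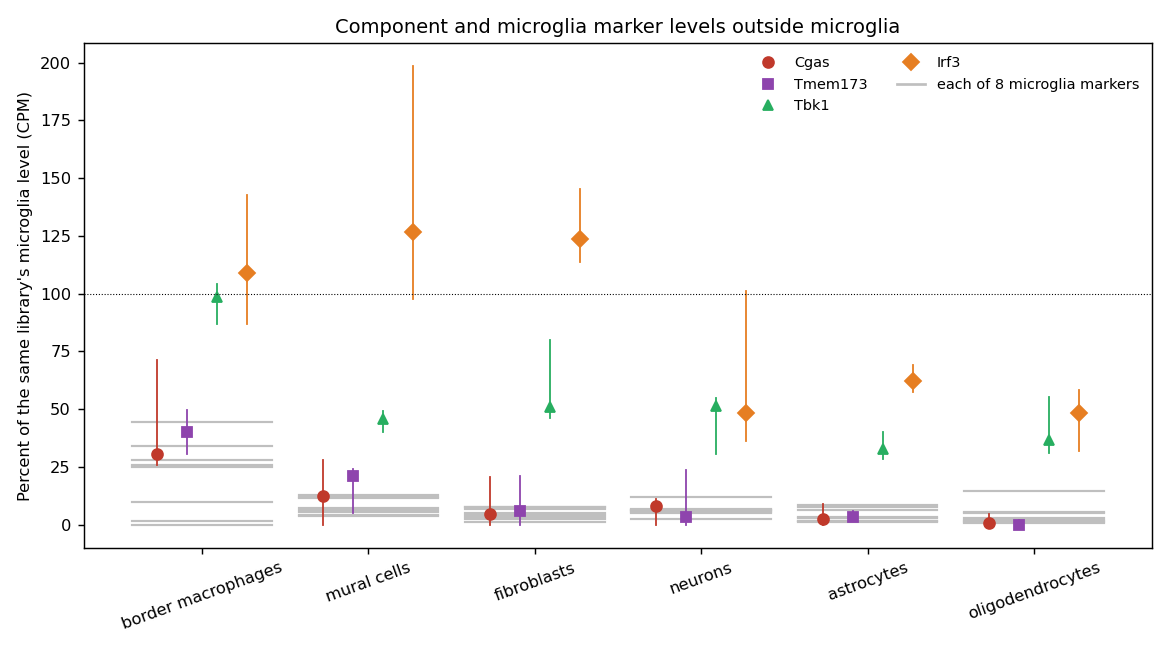
Level of Cgas, Tmem173, Tbk1 and Irf3 in 6 classes as a percent of the level in microglia of the same library (linear axis). Symbols are medians over 5 libraries, vertical lines the lowest to highest library, and grey lines the medians of the 8 microglia markers. Cgas and Tmem173 lie among the marker lines in neurons, astrocytes and fibroblasts and below them in oligodendrocytes, and Tbk1 and Irf3 lie above them.

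Lymphocytes and 1 further cluster had too few nuclei in some libraries for a test. Lymphocytes (192 nuclei, 3 to 120 per library) held 43 Tmem173 UMIs, a pooled level of 94.4 CPM (68.3 to 127), and 17 Cgas UMIs, 37.3 CPM (21.7 to 59.7), while the microglia markers stood at 0% to 10.1% of their microglial level. In the R241E libraries alone, lymphocytes held Tmem173 at 92.2 CPM (27 UMIs) and 91.3 CPM (8 UMIs), and the 3 WT libraries together added 8 UMIs. Cluster 14 (203 nuclei) was named monocytes or neutrophils by the marker lists, through markers such as S100a8, S100a9 and Retnlg. That name is not used here, because its leading genes were Cd74, Igkc and H2-Aa, genes of antigen presentation and of immunoglobulin. It held Tmem173 at 59.0 CPM (38.6 to 86.5) and Cgas at 54.5 CPM (34.9 to 81.1), with the microglia markers at 4.22% to 37.6%. Endothelial, ependymal or tanycyte-like and pituitary-like nuclei held between 1 and 3 UMIs of either gene. In the 60 endothelial nuclei 3 Cgas UMIs were a pooled 21.7 CPM (4.47 to 63.4), so the level there remains undetermined. In the 191 ependymal or tanycyte-like nuclei Cgas was at 2.27 CPM (0.275 to 8.19).

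The share of nuclei with a UMI depends on depth, so each nucleus was also thinned to 1000 UMIs. Among microglia, thinning left out 26 of 1515 R241E and 105 of 3841 WT nuclei that were shallower. After thinning, a Cgas UMI was seen in 7.31% of 5225 microglia (6.92% to 8.65% by library) and a Tmem173 UMI in 11.3% (9.53% to 14.1%). Before thinning the shares were 16.6% and 25.7%. Among oligodendrocytes, the shares after thinning were 0 of 643 for either gene, where 3 nuclei would be 0.467%. The exact 95% upper limit for 0 of 643 was 0.572%. Before thinning the counts were 3 and 2 of 651 nuclei. Median depths before thinning were 2061 to 3095 UMIs in microglia and 2409 to 4618.5 in oligodendrocytes. A UMI of both genes in the same nucleus was rare: 36 of 5225 thinned microglia (0.689%) and 267 of 5356 at full depth (4.99%). A nucleus without a UMI can still express the gene at this depth.

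The kinases differed from each other. Tbk1 (ENSMUSG00000020115, chr10:121546455-121586794) was found in all classes. Its CPM was 251 to 298 in microglia and 259 to 282 in border-associated macrophages, ranges that overlapped. The log2 difference of these macrophages from microglia was −0.25 (SE 0.14, edgeR adjusted p = 0.182). In fibroblasts, neurons, mural cells, oligodendrocytes and astrocytes it was lower than in microglia by 0.89 to 1.34 on the log2 scale (adjusted p at most 5.61e-07), and its median level there was 32.8% to 51.4% of that in microglia, above the range of the microglia markers in each.

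Ikbke (ENSMUSG00000042349, chr1:131254600-131279601), which encodes IKKε, a kinase related to TBK1, was scarce in microglia. Only 52 UMIs were counted there, at 6.30 and 4.86 CPM for R241E mice against 2.03, 2.77 and 2.40 CPM in WT. Fibroblasts held it at 10.7 (1 UMI, WT replicate 1) to 39.0 CPM and astrocytes at 14.6 to 30.7 CPM, and in both every library lay above every microglial library. Against microglia it was higher by 3.14 (SE 0.41, edgeR adjusted p = 1.42e-08) in fibroblasts, by 2.81 (SE 0.41, adjusted p = 1.58e-07) in astrocytes and by 1.84 (SE 0.55, adjusted p = 0.00460) in mural cells on the log2 scale. Lymphocytes held 59 Ikbke UMIs, a pooled 130 CPM (98.6 to 167). The lowest levels were in microglia, border-associated macrophages, neurons and oligodendrocytes, whose ranges overlapped with their neighbours in the order.

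Irf3 (ENSMUSG00000003184, chr7:44997648-45002848), the transcription factor, was also found in all 7 tested classes. Its means over the 5 libraries ran from 33.2 ± 9.0 CPM (SD) in oligodendrocytes to 96.1 ± 27.1 CPM in mural cells. Microglia held 71.1 ± 5.9 CPM. It was lower than in microglia in neurons (log2 difference −0.65, SE 0.17, edgeR adjusted p = 0.000742), oligodendrocytes (−0.75, SE 0.18, adjusted p = 0.000441) and astrocytes (−0.42, SE 0.17, adjusted p = 0.0307), and was not called in the other 3 classes. The call in astrocytes was lost when any of R241E replicate 1, R241E replicate 2 or WT replicate 3 was left out (adjusted p = 0.0878, 0.0724 and 0.264).

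The negative regulators could be read in part. Enpp1 (ENSMUSG00000037370, chr10:24637914-24712159) was highest in fibroblasts, at 160 and 248 CPM for R241E mice against 181, 321 and 205 CPM in WT. Oligodendrocytes followed at 20.7 to 66.6 CPM. Border-associated macrophages came next at 19.6 to 31.3 CPM, not called against microglia (log2 difference 0.95, SE 0.39, edgeR adjusted p = 0.0668). Microglia held 9.0 to 16.7 CPM. No fibroblast library overlapped with a library of another class. The log2 difference from microglia was 4.2 (SE 0.23, edgeR adjusted p = 1.05e-18) in fibroblasts and 2.19 (SE 0.26, adjusted p = 2.15e-09) in oligodendrocytes. It was lower than in microglia in neurons (−1.14, SE 0.41, adjusted p = 0.0133), a call lost without WT replicate 3 (−0.95, adjusted p = 0.0610), and in astrocytes (−2.80, SE 0.61, adjusted p = 0.000127), where 3 UMIs were counted in all.

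Trex1 (ENSMUSG00000049734, chr9:109057932-109059723 in RefSeq on GRCm38.p6) had 0 UMIs in all 9748 nuclei. In summed microglia a count of 3 would be 0.203 CPM. This cannot be read as absence of the transcript. In RefSeq on GRCm38.p6 the neighbouring gene Atrip (chr9:109059747-109074124) does not overlap Trex1. In the GENCODE annotation of the later assembly GRCm39, all 1147 exonic bases of Trex1 lie within exons of Atrip on the same strand. The annotation that the authors counted on was not checked, and reads shared by overlapping genes are commonly left uncounted. Atrip, which takes part in the DNA damage response, had 547 UMIs and stood at 12.9 to 20.1 CPM in microglia. Whether an overlap set the count of Trex1 to 0 was not tested.

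Over the 35 sums of tested classes and libraries, the genes whose log2(CPM + 1) followed a component most closely were sought among 8585 genes with a mean of at least 20 CPM. For Cgas these were Tgs1 (Pearson r = 0.88), Ube2f (0.86) and Ep300 (0.85). For Tmem173 they included Ifngr1 (0.91), a chain of the interferon gamma receptor, and Dennd1c (0.90). For Enpp1 they were Afap1l1 (0.85), Ptgds (0.84), an enzyme of prostaglandin synthesis, and Slc38a2 (0.83). Sums of the same library share its depth, and sums of the same class their cells, so these r are descriptions.

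In microglia, none of the 6 components tested was called different between R241E and WT. Across all genes 8.83% of 12689 were called with edgeR's quasi-likelihood test on microglial sums, with genotype as the only term. By unadjusted p under 0.05, 2 components passed (Ikbke and Tmem173), and DESeq2's Wald test and limma-voom called 0 of the 6 as well. Trex1 could not be tested. In bulk sums, a change in the makeup of microglia and a change in RNA per nucleus cannot be told apart. Microglial clusters 2, 5 and 18 held 87.1% and 73.9% of the R241E microglia and 2.71%, 4.77% and 7.51% of the WT microglia, which lay mostly in clusters 0 and 1, and the part of this shift in the values below was not tested.

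The small differences that were seen pointed mostly one way. The R241E levels of Cgas, given above, lay above all WT levels, with the log2 fold change being 0.25 (SE 0.12, edgeR adjusted p = 0.265) and an approximate 95% interval from 0.01 to 0.48. For Tmem173 the fold change was 0.28 (SE 0.11, adjusted p = 0.154), with an interval from 0.06 to 0.50. Tbk1 was at 296 and 298 CPM for R241E mice against 251, 267 and 286 CPM in WT, a log2 fold change of 0.13 (SE 0.09, adjusted p = 0.494) with an interval from −0.05 to 0.32. The 3 intervals are approximate and were narrower than the edgeR test allows. That for Cgas lay wholly above no change, though its unadjusted edgeR p was 0.0557. Their upper ends, the highest at 0.50 on the log2 scale, are therefore not firm limits.

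Ikbke had the largest fold change of the components, 1.21 on the log2 scale (SE 0.43, edgeR adjusted p = 0.102), from 20 and 7 UMIs for R241E mice against 5, 12 and 8 UMIs in WT. Its interval, from 0.38 to 2.04, includes a more than 2-fold difference. Lymphocytes, which held Ikbke at a pooled 130 CPM, numbered 120 and 34 in the R241E libraries against 3, 7 and 28 in WT. Whether their free RNA added to the microglial counts was not tested. Irf3 was at 64.6 and 72.2 CPM for R241E mice against 73.3, 66.2 and 79.3 CPM in WT, and the groups overlapped (−0.12, SE 0.13, adjusted p = 0.710). Enpp1 was at 11.7 and 16.7 CPM for R241E mice against 10.5, 10.2 and 9.01 CPM in WT (0.44, SE 0.27, adjusted p = 0.400). For 5 of the 6 components both R241E libraries lay above all WT libraries, as they did for 19.8% of all genes tested (in either direction 37.5% did not overlap), and the median fold change of the 6 was 0.26 against −0.003 over all genes. With the replicate number as a block, Tmem173 was called (0.35, edgeR adjusted p = 0.0123), but the sample titles do not say that the numbers pair the mice.

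**Figure D3:**
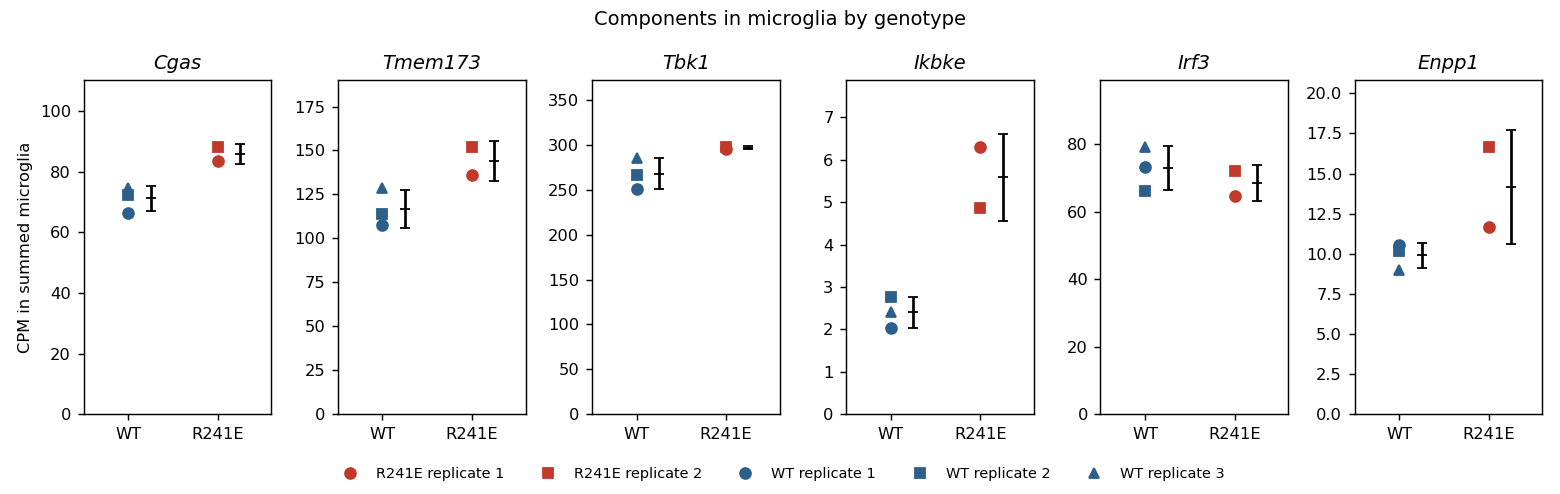
Level of 6 components in summed microglia (CPM, linear axes from 0, each gene on its own scale) for 3 WT and 2 R241E libraries. Points are libraries and the black bar is the mean ± SD of the group. The groups overlap for Irf3 alone, and no component passed the test across all genes.

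Shares of microglia with a UMI after thinning gave the same directions for the sensor and the adaptor. For Cgas they were 7.46% and 8.65% for R241E mice against 7.21%, 6.92% and 7.20% in WT. For Tmem173 they were 14.1% and 12.3% for R241E mice against 9.53%, 10.03% and 11.2% in WT. The groups did not overlap for either gene. The exact two-sided permutation test gave p = 0.1 for each, the smallest p that 2 against 3 libraries allow. By CPM in microglia, the groups did not overlap for 37.5% of all genes tested. The shares were thinned from the same UMIs as the levels above and are no separate evidence. With thinning to 2000 UMIs the Tmem173 shares overlapped, at 21.6% and 26.7% in R241E libraries and 17%, 17.96% and 22.2% in WT libraries (exact permutation p = 0.3). For Irf3 the mean share was lower in R241E after thinning (6.34% ± 0.42 against 7.17% ± 1.13, SD) and higher before it (18.1% ± 1.3 against 16.6% ± 1.0).

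In the other classes fewer components had enough counts for the test, 2 or 3 of the 7 in each (Tbk1 and Irf3 everywhere, Enpp1 in fibroblasts and oligodendrocytes, Ikbke in astrocytes), and none was called with edgeR or passed at an unadjusted p under 0.05. The share of all genes called was 0.43% for astrocytes, 0.887% for border-associated macrophages, 0.0172% for fibroblasts, 0% for mural cells, 0.0112% for neurons and 0.285% for oligodendrocytes. Irf3 in border-associated macrophages was at 57.9 and 62.9 CPM for R241E mice against 105, 81.5 and 86.3 CPM in WT, which did not overlap, as was so for 23.7% of genes tested in this class (11.6% with R241E higher). Its log2 fold change was −0.59 (SE 0.38, adjusted p = 0.767).

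Cgas in border-associated macrophages was too low for the filter. Its levels there, given above, rested on 19 and 8 UMIs for R241E mice and on 3, 3 and 4 UMIs for WT mice, and did not overlap. Without the filter the log2 fold change was 1.58 (SE 0.58, edgeR adjusted p = 0.519). The difference between the genotype effects in these macrophages and in microglia was 1.33 (SE 0.57, unadjusted p = 0.0196, adjusted p = 0.553), and 0.779% of all genes were called in that test, none of the 5 components among them (1, Cgas, at an unadjusted p under 0.05). Tmem173 overlapped between genotypes in this class, at 54.9 and 55.04 against 32.7, 56.4 and 51.8 CPM.

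Ikbke in astrocytes was at 16.4 and 14.6 CPM for R241E mice against 24.4, 26.7 and 30.7 CPM in WT. The groups did not overlap, as for 24% of genes tested in astrocytes (10.1% with R241E higher), and the fold change was −0.76 on the log2 scale (SE 0.43, edgeR adjusted p = 0.655). It was opposite to that in microglia. The test of the difference between the classes, added after this was seen, gave −1.93 (SE 0.79, adjusted p = 0.393) and called 0.742% of all genes, none of the 6 components among them (3 at an unadjusted p under 0.05, of which Cgas and Enpp1 had 0 UMIs in R241E astrocytes).

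The components themselves were not called, and some other genes of the pathway rose in R241E microglia. In 6 further lists with 65 genes, 61 were tested, of which 12 rose, 0 fell and 49 were not called. Of all genes tested, 5.71% were called higher and 3.12% lower. The lists were drawn up with earlier results of these data known, so these counts are descriptions and no test of the pathway as a set. The median log2 fold change was 0.26 over the 6 components, 0.10 over the 61 genes and −0.003 over all genes. Whether the components differed as a group from the 61 genes was not tested. Xrcc5 of the Ku DNA end-binding complex, named after its values were seen, was the only one of the 61 below 0 at an unadjusted p under 0.05 (−0.47, SE 0.15, edgeR adjusted p = 0.0768), and DESeq2's Wald test and limma-voom also called 0 lower.

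Among other DNA sensors, 2 of 8 rose. Ifi204, an interferon-inducible DNA sensor of the Ifi200 family, was at 477 and 422 CPM for R241E mice against 12.2, 13.4 and 18.6 CPM in WT (log2 fold change 4.91, SE 0.14, edgeR adjusted p = 6.84e-12). Its near-identical family members make the gene assignment of its reads uncertain. Zbp1, a sensor of Z-form nucleic acids, was at 29.9 and 35.4 CPM against 0.405, 0.462 and 0.901 CPM, the latter from 1, 2 and 3 UMIs. By pooled counts it was 53.4-fold higher (exact 95% interval 24.0 to 148). Both genes that rose also belong to the interferon list that the study used, as does Irf7 (below).

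Of the genes that clear or edit nucleic acids, 3 of 8 tested rose. Samhd1, which hydrolyses deoxynucleotides, was at 234 and 231 CPM for R241E mice against 106, 114 and 110 CPM in WT (1.06, SE 0.10, edgeR adjusted p = 2.19e-06). Adar, which edits double-stranded RNA, was at 83.5 and 72.9 against 28.8, 36.5 and 30.3 CPM (1.28, SE 0.15, adjusted p = 2.78e-05). Pld4, an endolysosomal exonuclease, was at 737 and 822 against 294, 532 and 557 CPM (0.74, SE 0.18, adjusted p = 0.0162), and its call was lost without R241E replicate 1 (adjusted p = 0.0834), without R241E replicate 2 (0.127) and with DESeq2 (0.330). The 3 subunits of RNase H2 and Dnase2a were not called.

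In the largest list, kinase adaptors and downstream factors, 6 of 19 rose. These were the transcription factors Irf7, at 46.3 and 52.8 CPM in R241E against 3.65, 4.39 and 4.203 CPM in WT (3.54, SE 0.22, edgeR adjusted p = 1.63e-08), Irf1 (1.32, SE 0.15) and Irf9 (1.11, SE 0.12), and the adaptors Tank (0.68, SE 0.10), Optn (1.26, SE 0.33) and Traf3 (0.42, SE 0.12). Tank, a scaffold that binds TBK1 and IKKε, was at 190 and 188 CPM against 113, 111 and 126 CPM. Optn rested on 9 to 35 UMIs a library, and its call was lost without R241E replicate 1 (adjusted p = 0.344), WT replicate 1 (0.0581) or WT replicate 2 (0.0524), with DESeq2 (0.156) and after thinning (0.179). The call of Traf3 was lost without R241E replicate 1 (0.542) or WT replicate 1 (0.119), with DESeq2 (0.0907) and after thinning (0.0533). Just outside the threshold was Relb, a subunit of noncanonical NF-κB (0.55, SE 0.17, adjusted p = 0.0521).

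Regulators of cGAS had 1 of 7 called. This was Trim14, which is reported to keep cGAS from degradation, at 213 and 201 CPM for R241E mice against 87.9, 95.6 and 103 CPM in WT (1.11, SE 0.10, edgeR adjusted p = 2.46e-06). Of 8 tested genes for the transport and breakdown of cGAMP, among them the Lrrc8 channel subunits, and of 11 for the trafficking and turnover of STING, none was called with edgeR (0 at an unadjusted p under 0.05). The medians of these lists were −0.03 and −0.04.

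**Figure D4:**
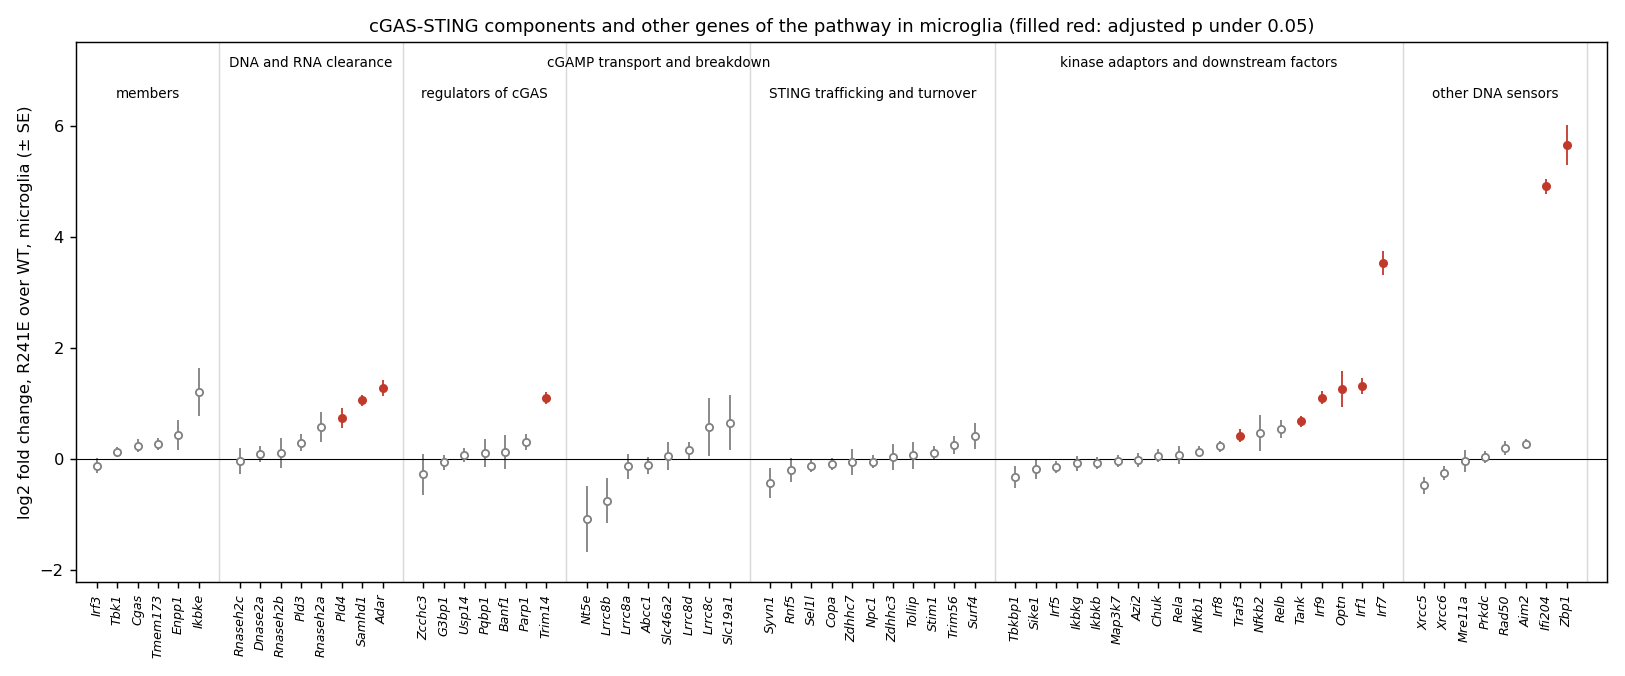
Log2 fold change of R241E over WT in microglia (± SE, linear axis) for the 6 components tested (left block, headed members) and 61 other genes of the pathway, grouped by list and ordered by value. Filled red points passed an edgeR adjusted p of 0.05. The 12 filled points lie above 0 in 4 of the lists, and no component is among them.

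Microglia were also split by the study's interferon list of 28 genes, which holds no component. After thinning to 1000 UMIs, at least 3 UMIs of the list were found in 44.0% and 33.0% of the R241E microglia and in 2.66%, 2.56% and 3.31% of the WT microglia. Many of these nuclei lay at the limit itself, with exactly 3 UMIs in 140 of 436 and 48 of 164 nuclei in R241E and in 62 of 107 over the WT libraries. In R241E replicate 1, Cgas was at 106 CPM (exact 95% Poisson interval 77.2 to 141) in nuclei with at least 3 UMIs and at 87.2 CPM (46.5 to 149) in nuclei with 0. In R241E replicate 2 it was at 159 CPM (104 to 232) against 61.4 CPM (24.7 to 127). The intervals overlapped in both libraries, but such overlap is no test of a difference, and the difference was not tested.

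Tmem173 was at 165 CPM (129 to 208) against 114 CPM (66.5 to 183) in R241E replicate 1, and at 128 CPM (79.3 to 196) against 114 CPM (60.7 to 195) in R241E replicate 2. Tbk1 was at 326 CPM (274 to 384) against 356 CPM (266 to 465), and at 268 CPM (195 to 360) against 254 CPM (170 to 365). Ikbke was seen in R241E microglia of the group with at least 3 UMIs, with 3 and 2 UMIs, and had 0 UMIs in the 149 and 114 nuclei without the list, where 3 UMIs would be 20.1 and 26.3 CPM. In WT, Ikbke had 1, 5 and 2 UMIs in the 637, 973 and 963 nuclei with 0 and none in the 24, 37 and 46 nuclei with at least 3. In these small groups 3 UMIs would be 125, 81.1 and 65.2 CPM, so no WT direction can be read. R241E nuclei without a UMI of the list held Cgas and Tmem173 at levels whose intervals overlapped with those of the same nuclei in WT, which were 69.1 to 77.1 CPM for Cgas and 95.8 to 130 CPM for Tmem173. Whether these nuclei differed between the genotypes was not tested.

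**Figure D5:**
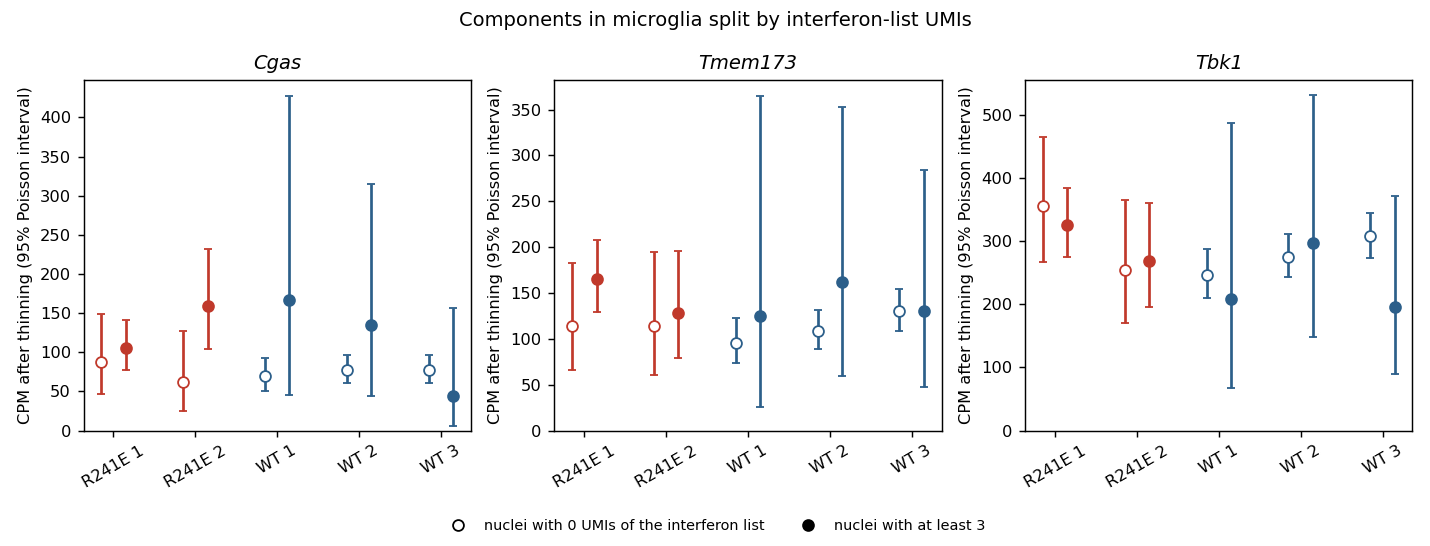
Level of Cgas, Tmem173 and Tbk1 (CPM after thinning each nucleus to 1000 UMIs, linear axes from 0) in microglia with 0 UMIs of the interferon list (open) and with at least 3 (filled), by library. Bars are exact 95% Poisson intervals, which cover counting error only. Within each library the open and filled intervals overlap for all 3 genes, which is no test of a difference.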

How the data were processed

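Nuclei of 5 mice were sorted from brain for DAPI and against NeuN and Olig2, and libraries were made with 10x Genomics 3′ chemistry. The authors aligned reads to mm10 with Cell Ranger 7.0.0 and deposited UMI counts per gene and nucleus, which were used as deposited. Nuclei were kept at 200 or more but below 4500 genes, below 10000 UMIs and below 5% mitochondrial counts, and no other doublet treatment was applied. They were clustered with scanpy 1.11.5 (Leiden resolution 1) without the components and pathway genes, and 24 clusters were named from marker lists.

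Counts were summed per library and class. The sums were tested with edgeR 4.0.16 (TMM normalization, filterByExpr, quasi-likelihood test, Benjamini-Hochberg over all genes, threshold 0.05); DESeq2 1.42.0 and limma 3.58.1 in R 4.3.3 served as alternatives, as did other normalization, filters, thinning and leaving out each library. CPM used total UMIs without TMM. Intervals of fold changes are the estimate ± 1.96 SE. The study's own test treated nuclei as replicates, whereas edgeR p-values here rest on sums per mouse, 1 library each, with a spread partly or wholly shared over genes. Class contrasts, blocked by library, compare classes within a library. Named genes were all components, the pathway genes called in microglia (at most 12, by adjusted p), and the 3 genes most correlated with Cgas, Tmem173 and Enpp1, of which 1 is not reported here. The components, lists and markers were chosen with earlier results of these data known. Scripts were tested on simulated data. Libraries of a group differed beyond sampling noise.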

Additional observations from a re-analysis of the deposited data

Results flagged for a closer look

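The effect of R241E on Ifi204, the DNA sensor with the smallest adjusted p among the pathway genes in microglia, differed between border-associated macrophages and microglia. The log2 difference of the effects was −3.82 (SE 0.27, edgeR adjusted p = 4.66e-43 for the interaction). In this test the spread was shared over genes, so its p does not measure the spread of Ifi204 between mice. In the macrophages Ifi204 was at 531 and 401 CPM for R241E mice against 366, 125 and 230 CPM in WT, so that WT levels there lay above WT microglia (12.2 to 18.6 CPM). Its fold change within the macrophages was 1.01 (SE 0.27, adjusted p = 0.0757).

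Tank, the scaffold of TBK1 and IKKε, rose in R241E microglia, and its effect in astrocytes was lower by 1.08 on the log2 scale (a difference of −1.08, SE 0.26, edgeR adjusted p = 0.0239). In astrocytes it was at 86.2 and 123 CPM for R241E mice against 128, 126 and 169 CPM in WT. Its log2 fold change within astrocytes was −0.44 (SE 0.24, edgeR adjusted p = 0.647).

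In 5 further cases all R241E libraries lay below all WT libraries of a class while the opposite held in microglia, and these differences between classes were not tested. Among genes tested in a class, R241E lay below WT in this way for 12.7% in fibroblasts, 9.35% in mural cells, 10.2% in neurons and 9.32% in oligodendrocytes. Tmem173 in neurons had 0 UMIs in both R241E libraries and 5, 2 and 11 UMIs in WT (mean difference −12.9 CPM), and none of these UMIs remained once nuclei with microglia markers were left out. Pld4 in mural cells differed by −21.4 CPM. Tank in oligodendrocytes was at 92.8 and 110 CPM for R241E mice against 145, 147 and 138 CPM in WT (−42.0 CPM). Its log2 fold change within oligodendrocytes was −0.53 (SE 0.22, edgeR adjusted p = 0.906). Optn differed by −8.45 CPM in fibroblasts and by −20.3 CPM in mural cells, on 3 to 12 UMIs a library.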

How the results depend on the processing

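No component was called between genotypes in microglia under any alternative but the replicate block, with 1 call (Tmem173, 0.35). Same-numbered mice deviated together with r = 0.10 and −0.01. With 2 R241E libraries their deviations from the group mean mirror each other, so this check cannot decide whether the numbers pair mice. The sample titles do not say that they do. Other calls for genotype moved more. In microglia 1121 genes were called, 706 after thinning, 2013 with the block and 488 to 1479 with a library left out. The counts without the filter, with the block and with a library left out were 276, 191 and 1 to 114 in astrocytes (34 in the report's test), 71, 60 and 6 to 49 in border-associated macrophages (35), 94, 5 and 0 to 101 in fibroblasts (1), 3, 2 and 0 to 2 in mural cells (0), 557, 229 and 0 to 5 in neurons (1), and 47, 72 and 6 to 45 in oligodendrocytes (16). Without the filter 1 component was called in neurons (Tmem173, −5.82, from 0 UMIs in R241E). The block and the lifted upper limits each called 1 pathway gene lower in microglia. Of the 36 class contrasts 27 were called, 23 to 27 with a library left out, and 14 of the 18 that could be tested after thinning. The Irf3 share difference was −0.82 percentage points and 1.46 without thinning.

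Fold changes near 0 changed sign without being called. With the block, Tbk1 was at 0.10 in astrocytes, 0.11 in fibroblasts, 0.000678 in mural cells and 0.19 in oligodendrocytes, and Irf3 at 0.083 in oligodendrocytes. Without the filter, Tbk1 was at 0.012 in border-associated macrophages and 0.066 in mural cells. With a library left out, Tbk1 ran from −0.16 to 0.093 in astrocytes, −0.32 to 0.12 in fibroblasts, −0.11 to 0.10 in mural cells, −0.53 to 0.30 in neurons and −0.35 to 0.23 in oligodendrocytes, Enpp1 from −0.52 to 0.10 in fibroblasts, and Irf3 from −0.34 to 0.16 in oligodendrocytes. Irf3 in border-associated macrophages against microglia was at 0.16 in WT libraries alone, 0.11 with library size only, and −0.18 to 0.073 with a library left out. The cause was not tested. Low counts limit several values, among them Tmem173 in oligodendrocytes and Ikbke in border-associated macrophages (2 UMIs each).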
